A study of Homo sapiens with 22 samples.

Results

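The genes described here make, break down and regulate polyamines, and they were chosen by symbol: ODC1, AMD1, SRM, SMS, OAZ1, OAZ2, AZIN1 and SAT1. Of 227264 transcript rows in the files, 59 mapped to these 8 genes, and each gene was represented by its protein-coding transcript with the highest mean count. All 8 of these transcripts were among the 79513 that reached a mean of at least 1 CPM (counts scaled by library size) and were tested. BRIC-Seq measured how labelled RNA was lost in HEK293T cells, a human embryonic kidney line, that expressed a control hairpin (shControl) or a hairpin against ZNF598 (shZNF598), a ubiquitin ligase that acts on collided ribosomes. Both arms carried the nucleotide analogue bromouridine (BrU, given at 150 µM over 24 h) in their RNA, and after a chase in medium that lacked it, BrU-containing RNA was pulled down and sequenced. Each arm had 2 libraries at chase times of 0 h, 2 h, 4 h, 6 h and 10 h and 1 library at 24 h, 22 in all. The labels did not say whether the 2 libraries came from separate cultures, so p-values measure the spread between these libraries, which may be technical. Those of slopes also count as spread any departure of a gene's course from a straight line.

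Polyamines (putrescine, spermidine and spermine) are small positively charged molecules that bind RNA and support translation and growth. Ornithine decarboxylase (ODC1) makes putrescine, and AMD1, the S-adenosylmethionine decarboxylase, supplies the aminopropyl groups that the spermidine synthase SRM and the spermine synthase SMS add to it. When polyamines are abundant, ribosomes shift reading frame on antizyme mRNA (OAZ1 and OAZ2), and antizyme then sends ODC1 to the proteasome, while the antizyme inhibitor AZIN1 binds antizyme and SAT1 acetylates spermidine and spermine for export or oxidation. Several of these mRNAs are thus controlled during translation.

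Elements of that control are shown because they mark where a ribosome must shift frame or passes a short upstream frame on the member mRNAs. The first pair are the antizyme frameshift sites, 30 bases each, with TCCTGA in capitals: its last 3 letters are the stop codon of the first frame. The base that the annotation leaves out between exons to join the frames was the 18th of each window, the first letter of that stop codon.
OAZ1 frameshift site, GRCh38, chr19:2271426-2271455, plus strand: ggcctcggtggtgcTCCTGAtgcccctcac
OAZ2 frameshift site, GRCh38, chr15:64691503-64691532, minus strand: ggcctctgtggtgcTCCTGAtgcccctcac
AMD1 upstream frame, GRCh38, chr6:110874796-110874816, plus strand: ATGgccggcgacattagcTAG
The antizyme windows differed at 1 of 30 bases. TCCTGA, searched on the coding strand, was present in 1.16% of 665421 coding windows of the same length, and 4 of 10725 genes with a tested protein-coding transcript had a gap of 1 base between annotated exons. The AMD1 upstream frame, with its start and stop codons in capitals, had 6 codons before the stop and ended 289 bases before the main start codon. An upstream frame of that length was found in the 5′ UTR of 4.7% of these genes.

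Total counts were 52352359 to 96963584 per library over 0-10 h, and 21220829 and 40157613 at 24 h. ZNF598 itself was lower in shZNF598 at 0 h (log2 change -3.08, SE 0.19, adjusted p = 2.58e-10, edgeR quasi-likelihood test) and was lower in every library over 0-10 h. Replicate libraries correlated at r = 0.989 or more across transcripts, apart from the shControl libraries of 0 h (r = 0.9768). HEK293T markers VIM, KRT8, KRT18, NEFM, NEFL and LIN28B had mean counts of 90.8 or more, PAX2 was close to 0 (2.8 counts on average), and markers of other cell types did not pass a mean of 0.45.

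Levels are CPM scaled by TMM, which sets the bulk of each library to a common level. Labelled RNA is lost during the chase, so a slope above 0 is described here as slower loss than the bulk and a slope below 0 as faster loss. Labelling that went on during the chase and unlabelled RNA in the pull-down were not measured, and their part in the slopes was not tested. A level in bulk RNA also cannot tell fewer expressing cells from less RNA per cell. Whether the libraries of the arms overlapped at single chase times is given as a description. The share of all transcripts without overlap at a single time was not counted.

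Per kilobase of transcript, OAZ1 was the highest member in shControl at 0 h (62.1 ± 12 CPM per kb, SD, n = 2), followed by ODC1 (44.9 ± 6.1). SMS (14.8 ± 0.54), SAT1 (12.5 ± 1.5), AZIN1 (10.5 ± 0.69) and AMD1 (8.90 ± 0.58) came next. SRM (5.37 ± 0.74) and OAZ2 (4.97 ± 0.34) were the lowest and overlapped each other, whereas the other neighbours in this order did not overlap. By 10 h the order was OAZ1 (249 ± 4), ODC1 (55.4 ± 6.3), SMS (41 ± 2.7), SAT1 (33.1 ± 3.7), AZIN1 (5.31 ± 0.47), SRM (4.44 ± 0.63), OAZ2 (2.59 ± 0.03) and AMD1 (2.10 ± 0.026). On these lengths AMD1 moved from sixth to last, and OAZ1 drew away from ODC1. The AMD1 transcript used has 6589 bases and had a mean count of 2474. A shorter one of 3423 bases (ENST00000368885) had 2385. On that length the AMD1 level per kilobase would be higher, so its place in both orders is uncertain. The place of AZIN1 beside SAT1 at 0 h is uncertain in the same way. Its transcript used has 4196 bases and a mean count of 2939, and a shorter one of 2857 bases (ENST00000347770) had 2527.

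**Figure D1:**
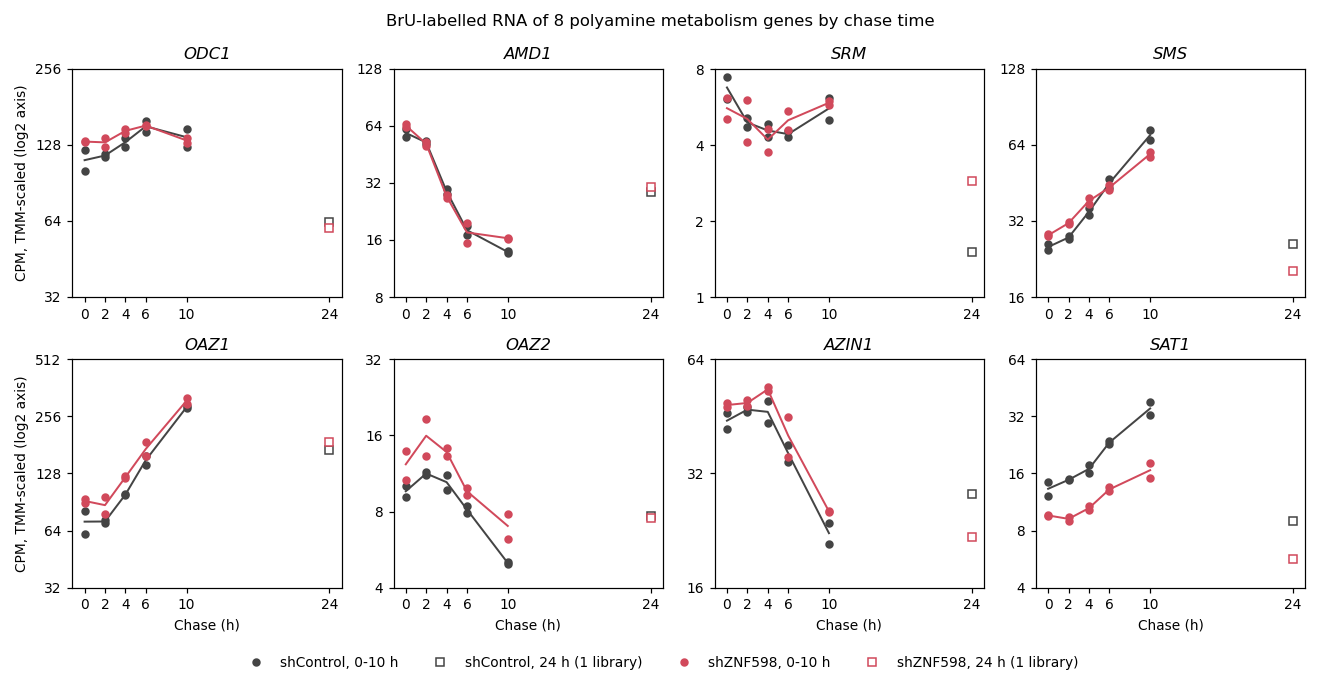
TMM-scaled CPM (log2 axis) of each gene against chase time in hours; points are libraries, lines join group means over 0-10 h, and open squares are the single libraries of 24 h. SAT1 was lower in shZNF598 at every time, and AMD1 fell from 58.6 to 13.8 CPM in shControl over 10 h while OAZ1 rose from 71.3 to 286 CPM.

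The slope over 0-10 h was then estimated for each member in each arm, in log2 units per hour relative to the bulk. In shControl, 4 members were lost more slowly than the bulk (OAZ1, SMS, SAT1 and ODC1) and 3 faster (AMD1, OAZ2 and AZIN1). The share over all transcripts tested was 33.5% slower and 40.8% faster. In shZNF598, 3 were slower (OAZ1, SMS and SAT1), against 32.7% of all transcripts, and 3 were faster, against 38.5%. The median slope of the 8 members was 0.0079 in shControl and 0.0087 in shZNF598, beside medians of -0.018 and -0.014 over all transcripts. All calls rest on edgeR's quasi-likelihood test at an adjusted p below 0.05 over all 79513 transcripts.

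Among the biosynthetic enzymes, AMD1 was the fastest member. Its transcript (ENST00000672937, chr6:110874785-110898879, plus strand) stood at 61.3 and 55.9 CPM in shControl at 0 h, 51.2 and 53.2 at 2 h, 28.0 and 29.8 at 4 h, 19.0 and 16.97 at 6 h, and 13.7 and 13.9 at 10 h. In shZNF598 it stood at 62.8 and 65.4, 50.2 and 52.6, 27.6 and 26.7, 19.6 and 15.5, and 16.3 and 16.4 CPM at the same times. The mean of both arms was lower at each step, with most of the fall between 2 and 6 h, and the arms overlapped at 2 and 6 h. The slope was -0.229 per hour (SE 0.025, adjusted p = 8.14e-08, edgeR) in shControl and -0.214 (SE 0.025, adjusted p = 1.78e-07, edgeR) in shZNF598. The difference of 0.015 had an interval of ± 2 SE from -0.052 to 0.083, which included 0. An apparent half-life by the rule of the study without its spike-in factor was 3.44 h in shControl (3.47 and 3.39 h from the single replicates) and 3.13 h in shZNF598 (3.50 and 2.82 h), each from the 0-6 h window, whereas the 0-10 h window gave 4.64 h and 4.87 h, in the other order. AMD1 was the only member that met the limits of that rule (R² above 0.9 and 0 to 24 h) in both arms, as did 14992 of the 79513 transcripts, whose medians were 4.84 h and 5.05 h.

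ODC1 (ENST00000234111, chr2:10439968-10448327, minus strand) changed little relative to the bulk. Its mean was 111 ± 15 CPM (SD, n = 2) in shControl at 0 h, 151 ± 11 at 6 h and 137 ± 16 at 10 h, and it was 132 ± 0.57, 152 ± 1.2 and 133 ± 4.7 CPM in shZNF598. The shZNF598 libraries were above the shControl libraries at 0, 2 and 4 h and overlapped them at 6 and 10 h. The slope in shControl was 0.037 (SE 0.013, adjusted p = 0.0125, edgeR), and in shZNF598 it was 0.0069 (SE 0.013, adjusted p = 0.639, edgeR); both took the other sign, at -0.033 and -0.056, when libraries were scaled by total counts in place of TMM, a scaling that lowered the median slope of all transcripts to -0.088 and -0.077. Without replicate 1 of shControl at 0 h, the shControl slope was 0.027 (adjusted p = 0.0743, edgeR) and was no longer called.

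The synthases differed. SMS, which makes spermine (ENST00000404933, chrX:21940709-21994837, plus strand), stood at 24.6 and 25.9 CPM in shControl at 0 h, 27.9 and 27.1 at 2 h, 33.7 and 35.9 at 4 h, 47.0 and 43.3 at 6 h, and 66.6 and 73.1 at 10 h. In shZNF598 it stood at 28.4 and 27.8, 31.2 and 31.5, 39.4 and 37.4, 42.5 and 44.2, and 60.1 and 57.5 CPM. The shZNF598 libraries were above the shControl libraries at 0, 2 and 4 h, overlapped them at 6 h and were below them at 10 h. The slope was 0.153 (SE 0.0088, adjusted p = 1.01e-11, edgeR) in shControl and 0.108 (SE 0.0090, adjusted p = 2.4e-09, edgeR) in shZNF598. SRM, which makes spermidine (ENST00000376957, chr1:11054589-11060018, minus strand), rested on 223 to 522 counts per library over 0-10 h and ranged from 3.76 to 7.42 CPM. Its slope was -0.021 (SE 0.022, adjusted p = 0.376, edgeR) in shControl and 0.010 (SE 0.022, adjusted p = 0.684, edgeR) in shZNF598. With total-count scaling the shControl slope became -0.091 (adjusted p = 0.000159, edgeR) and the shZNF598 slope -0.052 (adjusted p = 0.0173, edgeR). The median slopes of all transcripts under that scaling were -0.088 and -0.077. In shControl the mean was 6.76 ± 0.93 CPM (SD, n = 2) at 0 h, 4.42 ± 0.17 at 6 h and 5.59 ± 0.80 at 10 h, and the slope over 0-6 h was -0.099 (SE 0.031, adjusted p = 0.00851, edgeR).

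The regulators split by gene. OAZ1 (ENST00000602676, chr19:2269520-2273490, plus strand) stood at 61.5 and 81.1 CPM in shControl at 0 h, 73.0 and 69.9 at 2 h, 99.6 and 98.4 at 4 h, 142 and 159 at 6 h, and 283 and 289 at 10 h. In shZNF598 it stood at 89.9 and 93.4, 96.0 and 78.2, 121 and 124, 158 and 187, and 298 and 321 CPM. It rose 4.01-fold relative to the bulk from 0 to 10 h in shControl and 3.37-fold in shZNF598, and the arms overlapped only at 6 h. Its slope of 0.214 (SE 0.017, adjusted p = 6.84e-10, edgeR) in shControl was above that of 97.6% of all transcripts, and in shZNF598 it was 0.189 (SE 0.017, adjusted p = 6.58e-09, edgeR).

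OAZ2, the other antizyme (ENST00000326005, chr15:64687573-64703281, minus strand), went the other way. It stood at 9.16 and 10.1 CPM in shControl at 0 h, 11.5 and 11.1 at 2 h, 11.2 and 9.70 at 4 h, 7.91 and 8.37 at 6 h, and 5.05 and 4.97 at 10 h. In shZNF598 it stood at 13.9 and 10.7, 13.3 and 18.6, 14.3 and 13.2, 9.29 and 9.94, and 7.82 and 6.21 CPM. The shZNF598 libraries were above the shControl libraries at all 5 times. The slope was -0.106 (SE 0.025, adjusted p = 0.000844, edgeR) in shControl and -0.105 (SE 0.025, adjusted p = 0.000876, edgeR) in shZNF598. AZIN1, the antizyme inhibitor (ENST00000337198, on chromosome 8), had a like course: 44.1 ± 2.9, 47.1 ± 0.89, 46.5 ± 4.4, 36.2 ± 2.7 and 22.3 ± 2.0 CPM (SD, n = 2) in shControl at 0, 2, 4, 6 and 10 h. Its slopes were -0.106 (SE 0.021, adjusted p = 0.000141, edgeR) and -0.097 (SE 0.021, adjusted p = 0.000371, edgeR). In shControl neither slope was called over 0-4 h (0.024 for OAZ2, adjusted p = 0.737, and 0.014 for AZIN1, adjusted p = 0.693, edgeR) or over 0-6 h (-0.041, adjusted p = 0.333, and -0.042, adjusted p = 0.135, edgeR).

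SAT1, which acetylates polyamines (ENST00000379270, chrX:23783173-23786210, plus strand), was lost more slowly than the bulk in both arms, with a slope of 0.146 (SE 0.012, adjusted p = 1.54e-09, edgeR) in shControl and 0.089 (SE 0.012, adjusted p = 2.46e-06, edgeR) in shZNF598. With total-count scaling the shZNF598 slope was 0.026 (adjusted p = 0.0526, edgeR) and the shControl slope 0.076 (adjusted p = 4.98e-06, edgeR).

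The window of the chase mattered to these calls. Slopes over 0-24 h rest at their far end on 1 library per arm, without a replicate. For SRM that library held 26 counts in shControl and 99 in shZNF598. With the single libraries of 24 h added, AMD1 had slopes of -0.053 (shControl, adjusted p = 0.166, edgeR) and -0.050 (shZNF598, adjusted p = 0.193, edgeR) and was no longer called. OAZ1 was then called in shControl (0.092, adjusted p = 0.0281, edgeR) and not in shZNF598 (0.077, adjusted p = 0.0624, edgeR), and SAT1 and SMS were called in neither arm. In shControl SAT1 had a slope of 0.015 (adjusted p = 0.746, edgeR), SMS 0.032 (adjusted p = 0.414, edgeR) and ODC1 -0.029 (adjusted p = 0.159, edgeR). OAZ2 lost its call in shControl (-0.032, adjusted p = 0.156, edgeR). SRM in shControl (-0.068, adjusted p = 0.00431, edgeR) and ODC1 in shZNF598 (-0.045, adjusted p = 0.0323, edgeR) became called as faster than the bulk.

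**Figure D2:**
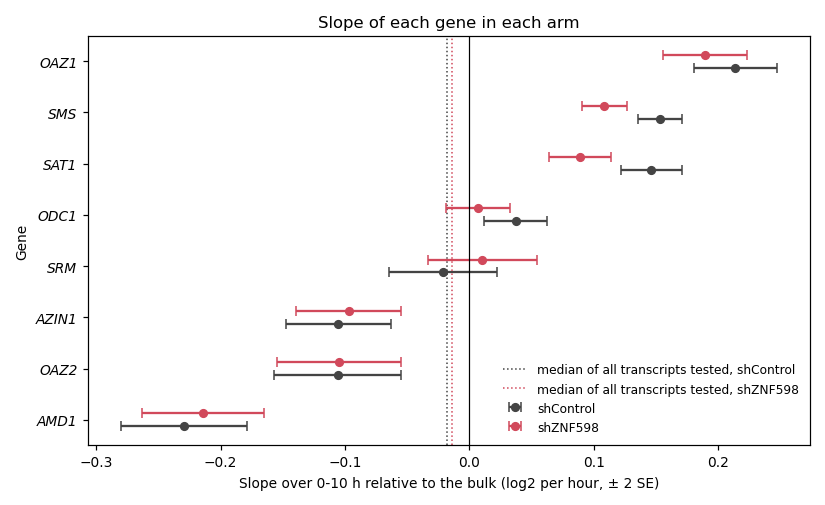
Slope over 0-10 h in log2 units per hour relative to the bulk, with bars of 2 SE, for each gene in each arm; dotted lines are the medians over all transcripts tested. AMD1, OAZ2 and AZIN1 lie below 0 and OAZ1, SMS and SAT1 above 0 in both arms; ODC1 in both arms and SRM in shZNF598 change sign with total-count scaling.

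Whether the arms differed was asked at each chase time, averaged over 0-10 h, and for the slope. No member was called at 0 h, where 0.407% of all transcripts were, although 4 members had an unadjusted p below 0.05. An unadjusted p that low was reached by 8069 of the 79513 transcripts. SAT1 was the only member called at 2 h (0.746% of all transcripts), 4 h (1.4%), 6 h (2.29%) and 10 h (3.23%). On average, 3 members were higher in shZNF598 (OAZ2, OAZ1 and AZIN1) and 1 was lower (SAT1), where 22.4% of all transcripts were called. The median change of the 8 members was 0.075, beside 0.020 over all transcripts.

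SAT1 had the largest difference. It stood at 12.2 and 14.4 CPM in shControl at 0 h, 14.9 and 14.7 at 2 h, 16.2 and 17.7 at 4 h, 22.8 and 23.8 at 6 h, and 32.4 and 38.0 at 10 h. In shZNF598 it stood at 9.52 and 9.69, 9.44 and 8.99, 10.3 and 10.8, 12.9 and 13.5, and 18.1 and 15.2 CPM. Both shZNF598 libraries were below both shControl libraries at all 5 times, which held for 2.44% of all transcripts, and the shControl mean was 1.38-fold higher at 0 h and 2.12-fold higher at 10 h. The log2 change was -0.47 at 0 h (SE 0.12, adjusted p = 0.0785, edgeR), -0.68 at 2 h (SE 0.12, adjusted p = 0.00206, edgeR), -0.69 at 4 h (SE 0.11, adjusted p = 0.000835, edgeR), -0.82 at 6 h (SE 0.11, adjusted p = 6.86e-05, edgeR) and -1.08 at 10 h (SE 0.11, adjusted p = 9.4e-07, edgeR). The average was -0.75 (SE 0.051, adjusted p = 9.52e-11, edgeR), lower than that of all but 0.5% of transcripts. Without replicate 2 of shZNF598 at 2 h the change there was about as large (-0.65, SE 0.15) but was no longer called (adjusted p = 0.0687, edgeR). Of the 6 HEK293T markers tested, NEFM was also lower in shZNF598 on average (-0.78, SE 0.088, adjusted p = 5.35e-07, edgeR), as was KRT8 (-0.17, adjusted p = 0.0249, edgeR), and VIM was higher (0.15, adjusted p = 0.0128, edgeR). The summed level of the marker list was 163 to 235 CPM over the shControl libraries and 172 to 284 CPM over the shZNF598 libraries, and its part in the SAT1 difference was not tested. At 0 h SAT1 was called without replicate 1 of shControl (-0.58, adjusted p = 0.0277, edgeR), with DESeq2 (-0.47, adjusted p = 0.0347) and with total-count scaling (-0.51, adjusted p = 0.036, edgeR).

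All 8 annotated SAT1 transcripts were lower in shZNF598 on average, by -0.69 to -0.76 on the log2 scale and each called, with reads of shared exons counted for more than 1 of them. They included a transcript annotated as a target of nonsense-mediated decay (ENST00000489394), with a change of -0.74 (SE 0.053, adjusted p = 1.79e-10, edgeR). The retained-intron transcripts that end in the first part of the gene had slopes in shControl of 0.067 (ENST00000379251), 0.088 (ENST00000379253) and 0.125 (ENST00000487713), and those that start further along had slopes of 0.158 (ENST00000462639 and ENST00000474223). The difference between these transcripts was not tested.

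The antizymes were higher in shZNF598. The average log2 change was 0.40 for OAZ2 (SE 0.067, adjusted p = 0.000129, edgeR) and 0.25 for OAZ1 (SE 0.053, adjusted p = 0.00133, edgeR). For OAZ2 the shZNF598 libraries lay above the shControl libraries at all 5 times, as for 2.05% of all transcripts. At single times OAZ2 was higher by 0.24 to 0.50 and OAZ1 by 0.11 to 0.36, none called. OAZ2 became called at 2 h without replicate 1 of shZNF598 at that time (0.72, adjusted p = 0.0212, edgeR) and with no filter on low counts (0.51, adjusted p = 0.0226, edgeR). OAZ1 became called at 0 h without replicate 2 of shControl (0.58, adjusted p = 0.0157, edgeR), 1 of the libraries that agreed least.

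AZIN1 was higher by 0.15 on average (SE 0.050, adjusted p = 0.0349, edgeR). This call was lost in 14 of 29 alternatives, 11 of which left out 1 library, over which the change was 0.11 to 0.15 and the adjusted p 0.0519 to 0.0904 (edgeR). Those libraries were both of shZNF598 at 0 and 4 h, both of shControl at 2 h, replicate 1 of shZNF598 at 2 and 6 h, replicate 1 of shControl at 4 and 10 h, and replicate 2 of shControl at 6 h. The biosynthetic enzymes did not pass the test: ODC1 0.11 (± 2 SE interval 0.014 to 0.199, adjusted p = 0.1, edgeR), AMD1 0.043 (-0.053 to 0.138), SMS 0.036 (-0.048 to 0.119) and SRM -0.016 (-0.164 to 0.133). Without replicate 2 of shControl at 0 h, ODC1 was called at 0.14 (adjusted p = 0.0227, edgeR). Without the 4 libraries of 0 h, an alternative chosen after seeing the data, OAZ1, OAZ2 and SAT1 were called and AZIN1 was not (0.15, adjusted p = 0.0661, edgeR).

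**Figure D3:**
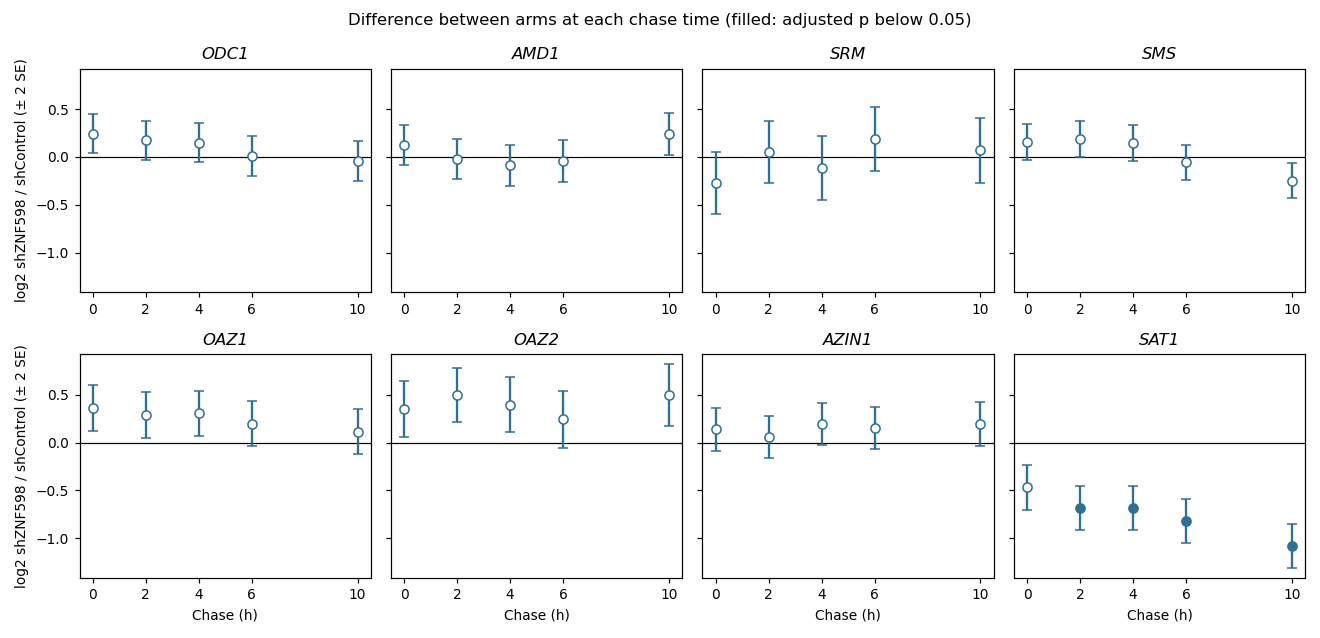
Log2 ratio of shZNF598 to shControl at each chase time in hours, with bars of 2 SE; filled points have an adjusted p below 0.05. The SAT1 ratio runs from -0.47 at 0 h to -1.08 at 10 h and is filled from 2 h on, while OAZ1 and OAZ2 are above 0 at each time and open.

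No member had a slope that differed between arms (0.116% of all transcripts were called by edgeR), although 2 had an unadjusted p below 0.05. That held for 4397 of the 79513 transcripts. The slope of SAT1 was lower in shZNF598 by 0.057 per hour (difference -0.057, SE 0.018, adjusted p = 0.398, edgeR), and that of SMS differed by -0.045 (SE 0.013, adjusted p = 0.298, edgeR). With DESeq2's Wald test SMS was called (-0.048, adjusted p = 0.0317) and 506 transcripts in all, against 92 with edgeR. Tested as a linear trend of the group means, SAT1 differed by -0.057 (SE 0.015, adjusted p = 0.0779, edgeR) and SMS by -0.045 (SE 0.012, adjusted p = 0.0872, edgeR), and no member was called, where 0.737% of all transcripts were. The ± 2 SE intervals from the straight lines were -0.093 to -0.022 for SAT1 and -0.071 to -0.019 for SMS, both without 0, so a missed threshold does not show equal slopes. The intervals of the other members were -0.066 to 0.0060 for ODC1, -0.073 to 0.024 for OAZ1, -0.030 to 0.093 for SRM, -0.050 to 0.067 for AZIN1 and -0.069 to 0.071 for OAZ2. Straight lines count the bend of a course as spread, which can widen these intervals. For the AMD1 difference the SE was 0.034 from the lines and 0.014 from the trend of group means.

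Ratios between members in the same library need no scaling of libraries. The OAZ1 to ODC1 ratio of levels per kilobase was 1.32 and 1.43 in shControl at 0 h, 1.38 and 1.28 at 2 h, 1.71 and 1.56 at 4 h, 2.12 and 2.16 at 6 h, and 4.84 and 4.21 at 10 h. In shZNF598 it was 1.47 and 1.53, 1.52 and 1.35, 1.76 and 1.87, 2.24 and 2.63, and 4.72 and 5.33. The mean was higher in shZNF598 at 5 of 5 times, with overlap of the libraries at 2 and 10 h. Averaged within times, the ratio was 1.11-fold higher in shZNF598 (log2 0.14, exact permutation test within chase times, two-sided p = 0.00231, adjusted over the 3 ratios 0.00694). The smallest p this design can give is 0.0003. The AZIN1 to ODC1 ratio was 0.22 and 0.25 at 0 h and 0.094 and 0.098 at 10 h in shControl, and it differed by 1.03-fold between arms (exact permutation p = 0.504, adjusted 0.596). The SMS to SRM ratio was 2.45 and 3.14 at 0 h and 8.01 and 10.8 at 10 h in shControl, and it differed by 1.04-fold (exact permutation p = 0.596, adjusted 0.596).

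**Figure D4:**
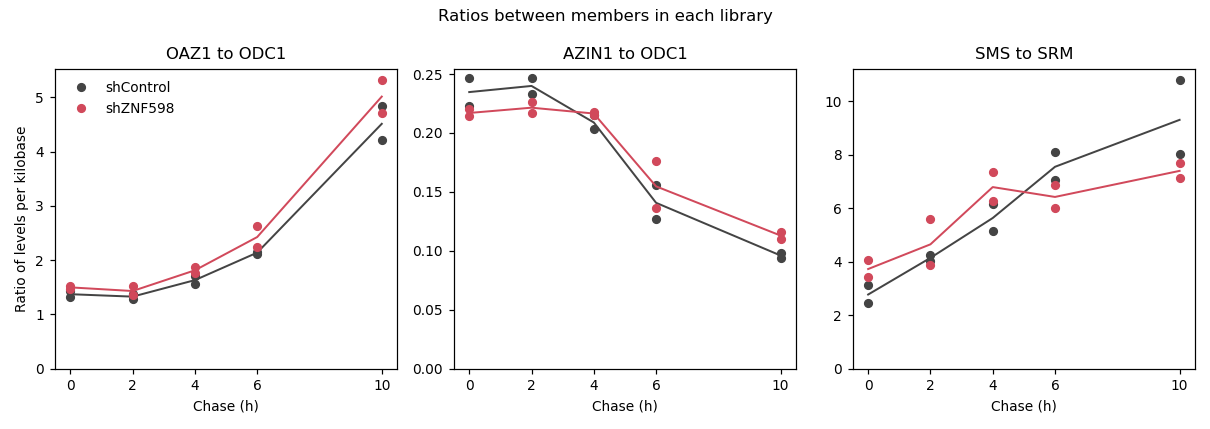
Ratio of levels per kilobase in each library against chase time in hours, with lines through the geometric means of each arm. The OAZ1 to ODC1 ratio rises from 1.32 and 1.43 at 0 h to 4.84 and 4.21 at 10 h in shControl, and the shZNF598 line lies above at each time.

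The spread between transcripts differed by gene. Over the annotated transcripts of each member that were tested (4 to 11), slopes in shControl ran from -0.23 to -0.215 for AMD1, from 0.197 to 0.234 for OAZ1, from -0.118 to -0.070 for AZIN1 and from -0.18 to -0.098 for OAZ2. They ran from 0.13 to 0.158 for SMS, from 0.037 to 0.079 for ODC1 and from -0.032 to -0.0072 for SRM, and those of SAT1 had the range of 0.067 to 0.158. In shZNF598, 5 of 8 SAT1 transcripts were called above the bulk, and the 3 that end in the first part of the gene were not (adjusted p = 0.0968, 0.106 and 0.259, edgeR). Of the 4 ODC1 transcripts, 1 (ENST00000443218) was called in shZNF598 (0.051, adjusted p = 0.00787, edgeR), unlike the main one. None of the members’ transcripts had a called difference in slope or in 0 h level by edgeR. These rows share reads and are not independent.

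The members differed in the length of the 3′ UTR and in ATTTA, the core of AU-rich elements, counted on the transcript strand with overlaps allowed. AMD1 had a 3′ UTR of 4879 bases with 12 ATTTA and AZIN1 one of 2259 bases with 11, where 99.2% and 93.5% of genes with a 3′ UTR of like length had at least 1. OAZ2 had 1131 bases with 2 (81.3% of like genes had 1 or more), and ODC1 had 756 bases with 0 (68.5%). OAZ1 (382 bases), SRM (276) and SMS (486) had 1 each, and SAT1 (354 bases in the later annotation) had 2, where 45.7%, 40.1%, 52.2% and 43.5% of like genes had any. The median ATTTA count in like genes was 11 for AMD1, 5 for AZIN1 and 2 for OAZ2. It was 1 for ODC1 and SMS, and 0 for OAZ1, SRM and SAT1. The 3 members below the bulk in both arms were thus those with the longest annotated 3′ UTRs, which is a description of 8 genes. Transcripts that end earlier had nearly as many counts. For AMD1 one of 3423 bases had a mean of 2385, against 2474 for the transcript used. For AZIN1 one of 2857 bases had 2527, against 2939. The far part of the AMD1 3′ UTR may thus be little present in the RNA measured. The gap between the counts was wider for AZIN1, and how far its longer 3′ UTR was present was not measured.

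Across the 20 libraries of 0-10 h, OAZ1 and SMS rose together (Pearson r of log2 CPM 0.963) and both ran opposite to AMD1 (-0.90 and -0.93), values that share the chase times and the scaling of libraries. Among 13414 genes, the courses most like that of AMD1 were BFAR and CNOT2 (both 0.994), and those most like OAZ1 were the ribosomal protein gene RPL4 and its near-identical copy RPL4P5 (both 0.996). SMS was closest to ETFA (0.994) and ENSG00000213080 (0.993), AZIN1 to MRPS10 (0.985) and the release factor gene ETF1 (0.982), and SAT1 to ALDH1A2 (0.973) and ATP6AP1 (0.97). OAZ2 was closest to SLC49A4 (0.96) and CHRAC1 (0.957), ODC1 to COX7A2L (0.934) and ILF2 (0.925), and SRM to ENSG00000246596 (0.845) and GRAMD1A (0.824).

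Of 26 other genes of the polyamine pathway, 21 were tested, and PAOX, ARG1, OAZ3, ATP13A4 and SLC12A8 were too low. In shControl 8 were lost more slowly than the bulk, led by EIF5A (0.167), which carries hypusine made from spermidine, the polyamine exporter ATP13A2 (0.159) and ADI1 (0.144) of methionine salvage. A further 9 were lost faster, led by MAT2B (-0.228), a regulatory subunit for S-adenosylmethionine synthesis, DOHH (-0.151), which completes hypusine, and MTAP (-0.145), which clears methylthioadenosine. These counts of 21 were near the shares over all transcripts, 33.5% slower and 40.8% faster. None was called at 0 h, where ATP13A3 was closest (0.24, SE 0.13, adjusted p = 0.572, edgeR), and none for the slope difference, where ADI1 was closest (-0.046, SE 0.015, adjusted p = 0.418, edgeR). At an unadjusted p below 0.05 these comparisons counted 8069 and 4397 of all transcripts. On average 4 of 21 were higher in shZNF598 and 1 was lower, close to the 22.4% called over all transcripts. The higher ones were the spermine oxidase SMOX (0.29), EIF5A2 (0.27), ATP13A3 (0.27) and the arginine transporter SLC7A1 (0.18), and the lower one was ENOPH1 (-0.13), all named after their values were seen. The median change was 0.028, beside 0.020 over all transcripts.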

How the data were processed

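BrU-labelled RNA of HEK293T cells was sequenced in 22 libraries. Per the labels and methods, the authors trimmed reads with fastp, removed reads of noncoding RNA, aligned the rest to hg38 with GENCODE release 32 by STAR 2.7.0a (1 mismatch, 1 locus) and ran featureCounts on transcripts. The table they deposited holds unnormalized counts beside each transcript's length in codons. The library kit was stranded, but the strand setting of the counting is not given in the sources used here. Spike-in counts were not used, so slopes are relative to the bulk.

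Groups and replicate numbers came from the labels. Identifiers were named with GENCODE release 44 (GRCh38): 92.2% of 227264 matched with version and 98.4% without. AMD1 and SAT1 matched without version, and the SAT1 row kept its deposited length of 1065 bases (1049 in release 44). Unmatched identifiers held 2.2% of counts. Reads from near-identical copies and shared exons cannot be separated, so copies such as RPL4P5 and transcripts of a gene are uncertain.

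Counts were fitted with edgeR 4.0.16 in R 4.3.3 over 20 libraries (0-10 h) with TMM scaling, a trended dispersion, a mean of at least 1 CPM, and Benjamini-Hochberg adjustment over 79513 transcripts. A model with 1 mean per group gave levels and a straight line per arm gave slopes. The standard error was the log2 value divided by the square root of F. DESeq2 1.42.0 was used for an alternative and for half-lives, the best of the windows 0-4, 0-6, 0-10 and 0-24 h. Other alternatives were size factors, filters, other transcript rows, chase windows, a replicate block and each library left out. Correlations used a pseudocount of 0.5. The functions were tested on simulated data. Libraries of 24 h had no replicate and were left out of the main fits. They entered the alternative slopes over 0-24 h and the DESeq2 fit for half-lives, and their levels are given as values. The members, gene lists and tests were chosen with earlier results of these data known. Named besides the members and ZNF598 were up to 3 pathway genes per direction with the largest called change in the shControl slope, slope difference and 0 h level (or the smallest adjusted p), and the 2 genes most correlated with each member. Outside this rule, the 5 pathway genes called for the average level and 3 HEK293T markers were named after their values were seen.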

Additional observations from a re-analysis of the deposited data

Results flagged for a closer look

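SMS and AMD1 moved in opposite directions between the arms at different chase times, with no overlap of libraries at those times. Both were picked for this pattern, and its share over all transcripts was not counted. With 2 libraries per arm, libraries can separate at a single time without any difference between the arms. The log2 ratio of shZNF598 to shControl of SMS was 0.15 at 0 h, 0.19 at 2 h and 0.14 at 4 h, and it was -0.25 at 10 h. That of AMD1 was 0.13 at 0 h, -0.088 at 4 h and 0.24 at 10 h. None of these values was called by edgeR, and the difference between single times was not tested. As a difference in slope over 0-10 h, SMS had an adjusted p of 0.298 and AMD1 of 1 by edgeR's quasi-likelihood test.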

How the results depend on the processing

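A count of called members was taken as unchanged within a factor of 1.5, and a ratio when its sign and call held. This was so in 112 of 121 recomputations with other settings and in 276 of 280 with 1 library left out. Total-count scaling and the means without 0 h were chosen after seeing the data. At 0 h the count of 0 became 1 with DESeq2's Wald test and with total counts, and was 0 to 1 with a library left out. At 2 h the count of 1 became 2 with no filter, and was 0 to 2 with a library left out. Slower members in shControl numbered 1 over 0-24 h. In shZNF598 slower members numbered 0 over 0-24 h, and faster members 1 over 0-4 h and 1 over 0-6 h. With total counts 5 members had a called slope below 0 in shZNF598. Under that scaling 0 does not stand for the bulk, since the median slope over all transcripts was -0.077. The slopes of ODC1 and SRM, 2 of the 5, were above that median. Members with a different slope numbered 1 with DESeq2. Over all transcripts, DESeq2 called 506 different slopes against 92 with edgeR, and 550 against 324 at 0 h. The linear trend of group means called 586 different slopes. Correlations of replicate deviations between the arms were -0.00483 at 0 h, 0.119 at 2 h, 0.35 at 4 h, 0.298 at 6 h and -0.228 at 10 h. They do not settle whether replicate numbers pair the libraries. The replicate block changed no count (4 for the average, 0 for different slopes). Signs reversed as follows, and the cause was not tested. With total counts the ODC1 slopes were -0.0327 (shControl) and -0.0558 (shZNF598), and the SRM slope in shZNF598 was -0.0524. Over 0-4 h the shControl slopes were 0.0238 for OAZ2 and 0.0136 for AZIN1, the shZNF598 slopes were 0.0429, 0.0379 and, for SRM, -0.0992, and the slope differences were -0.0453 for AMD1 and 0.00653 for SMS. Over 0-6 h the differences were -0.0281 for AMD1 and -0.0234 for OAZ2, and the SRM slope in shZNF598 was -0.0345. Over 0-24 h the ODC1 slopes were -0.0291 and -0.0448, those of SAT1, SRM and SMS in shZNF598 were -0.00935, -0.0285 and -5.68e-06, and the differences were -0.0169 for OAZ2 and -0.0194 for AZIN1. Over 2-10 h the slopes were 0.0195 for SRM in shControl and -0.00844 for ODC1 in shZNF598, the OAZ2 difference was -0.00297, and the SRM average was 0.0435. The OAZ2 difference, near 0, was also -0.00109 with DESeq2 size factors, -0.0017 with no filter, -0.00241 with filterByExpr, -0.00041 with 1 row per gene and -0.000977 with DESeq2. With a library left out, differences ranged from -0.00535 to 0.0293 for AMD1, from -0.0232 to 0.0208 for OAZ2 and from -0.012 to 0.0249 for AZIN1, and SRM ranged from -0.0485 to 0.000679 (shControl slope), from -0.000196 to 0.0261 (shZNF598 slope) and from -0.0765 to 0.0344 (average). Depth limits SRM and OAZ2 most, with lowest counts of 223 and 245 per library over 0-10 h.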

Other observations

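At 24 h each arm had 1 library, with total counts of 21220829 (shControl) and 40157613 (shZNF598), so the values have no replicate check. AMD1, the fastest member over 0-10 h, stood at 28.7 CPM in shControl and 30.5 CPM in shZNF598, above its 10 h means of 13.8 and 16.3 CPM. OAZ1 stood at 170 and 187 CPM, SMS at 25.9 and 20.3 CPM, and ODC1 at 63.6 and 60.2 CPM, each below its 10 h mean. SAT1 was at 9.01 CPM in shControl and 5.64 CPM in shZNF598, a ratio of 1.60 against 2.12 at 10 h. AZIN1 was at 28.2 and 21.8 CPM and OAZ2 at 7.68 and 7.51 CPM, so that the arms no longer stood in the order of the earlier times. SRM rested on 26 and 99 counts.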
